A study of Mus musculus with 2 samples.

Results

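The genes described here encode the enzymes that build purine and pyrimidine nucleotides, recover them from bases and nucleosides, and convert them to deoxynucleoside triphosphates (dNTPs). They are 38 named mouse genes, chosen by symbol from a table of 54532 gene identifiers, and each matched 1 identifier. Primary splenic CD8+ T cells of wild-type (WT) mice spent 8 h in RPMI 1640 lacking methionine or in RPMI 1640 with it, called complete medium here. Each medium is represented by 1 bulk RNA-seq library. No comparison is therefore replicated, and none carries a p-value. The labels call the donors ND mice without spelling this out, and do not give their strain, number or age, nor whether the cultures share animals or were stimulated. They name a kit for whole RNA and a kit for mRNA without saying which made which library.

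Purine rings are assembled stepwise on phosphoribosyl pyrophosphate (PRPP) up to inosine monophosphate (IMP), which is then turned into AMP or GMP. The pyrimidine ring is made before the ribose phosphate is attached, giving UMP and then CTP. Salvage enzymes reuse bases and nucleosides, and ribonucleotide reductase turns ribonucleoside diphosphates into the deoxy forms used for DNA. Dividing T cells are known to depend on these routes: in humans, inherited loss of ADA, PNP or CTPS1 impairs lymphocytes. Purine and thymidylate synthesis also draw carbon units from the folate pool that serves methionine synthesis.

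The methionine-free library held 19647681 counts and the complete-medium library 14646527. Levels are in CPM, counts per 1000000 after TMM scaling, and a fold is the ratio of scaled counts. The range in parentheses after a fold is its exact conditional 95% interval, which covers counting error only. A gene is called lower or higher at 1.5-fold, with 2-fold as a stricter limit, by size alone. All 38 genes passed the minimum mean of 10 counts, with 16 counts (Nme2) to 8585 counts (Cad) in a library, and 117 or more for every gene but Nme2. The CD8 T cell identity was read from 11 markers, none at 0 and none past 1.5-fold, with a summed level of 2677 CPM without methionine and 3049 CPM in complete medium. Markers of other cells were low or mixed: summed CD4 markers were at 5.36 CPM without methionine and 4.29 CPM in complete medium, erythroid markers at 1.84 CPM without methionine and 1.43 CPM in complete medium, and B cell markers at 6.89 CPM without methionine and 11.3 CPM in complete medium, 3 of 5 being called lower. Summed myeloid and dendritic cell markers were at 27.0 CPM without methionine and 9.46 CPM in complete medium, mostly from Zbtb46 and Flt3, both called higher, while Csf1r had 0 counts without methionine and 6 in complete medium. NK cell markers came to 136 CPM without methionine and 160 CPM in complete medium, nearly all of it Eomes, and Klrb1c was at 0 in both. Ncr1 had 0 counts without methionine and 3 in complete medium, and Klra8 had 1 without methionine and 4 in complete medium. The part of these other cells in the differences below was not tested.

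The dNTP genes stood lower without methionine, the genes of base and ribonucleoside salvage lay near those of de novo synthesis, and none of the 38 was called higher. In all, 14 of 38 genes were at least 1.5-fold lower, against 18.0% of the 13041 genes tested, and none was at least 1.5-fold higher, against 15.7%. At 2-fold, 7 were lower, against 9.29% of all genes, and none was higher, against 5.80%. Together the 38 genes took 0.454% of counts without methionine and 0.657% in complete medium. Of the 14 called lower, 7 were dNTP genes, 3 de novo purine genes, 2 salvage genes, 1 a de novo pyrimidine gene and 1 a PRPP synthetase gene. The median log2 difference, methionine-free minus complete medium, was -1.54 for the 10 dNTP genes. It was -0.33 for the 10 de novo purine genes, -0.31 for the 5 de novo pyrimidine genes, -0.20 for the 6 salvage genes and 0.04 for all genes tested. The 28 genes outside the dNTP group had a median of -0.29, with 7 of them called lower. In bulk RNA, fewer cells of a kind and less RNA per cell cannot be told apart.

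**Figure D1:**
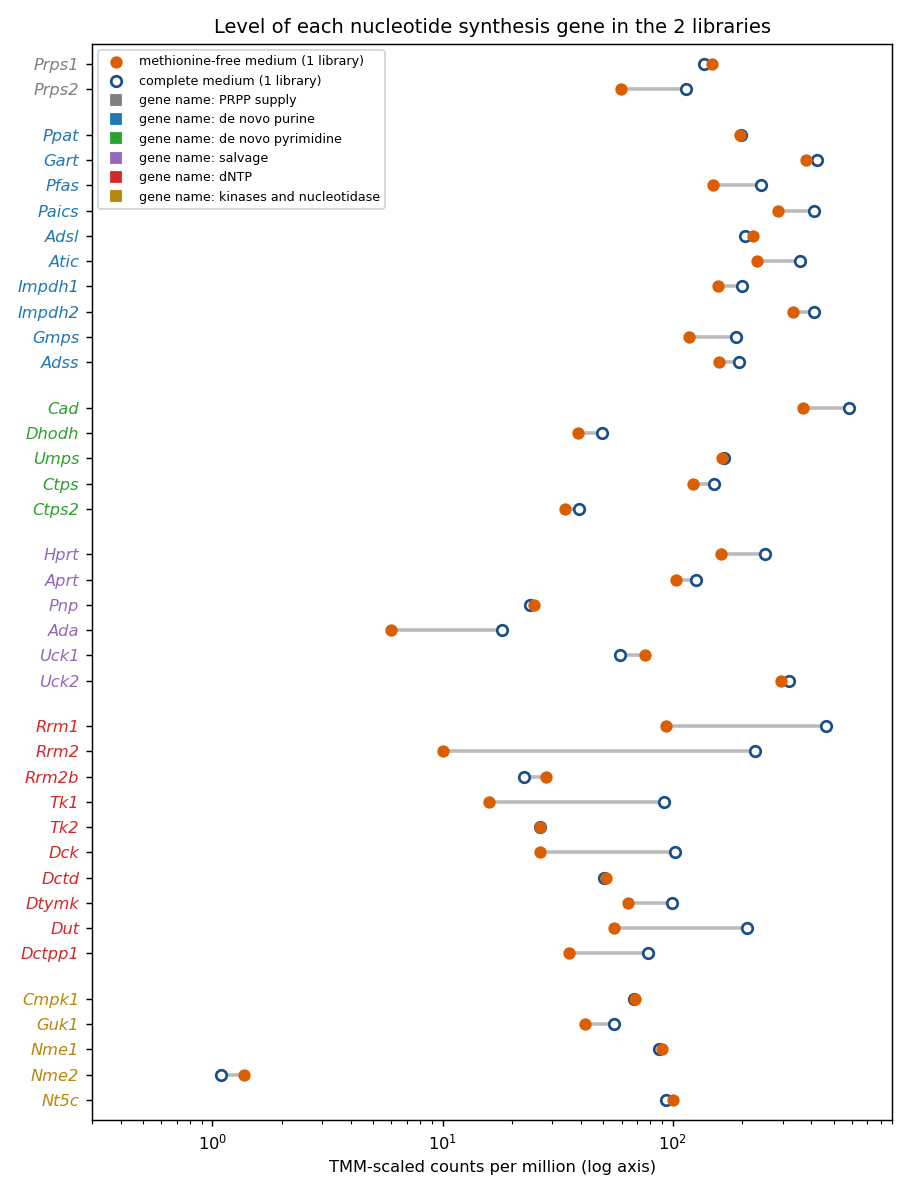
Level of each of the 38 genes in TMM-scaled CPM, on a log axis, in the methionine-free library (filled) and the complete-medium library (open), grouped by step. The widest gap is that of Rrm2, at 10.1 CPM without methionine and 229 CPM in complete medium, while Ppat, Umps, Tk2 and Cmpk1 nearly coincide.

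Ribonucleotide reductase, the enzyme that makes deoxyribonucleotides, held the gene with the lowest value. Rrm2 encodes its small subunit in dividing cells and lies on chromosome 12 (24708241 to 24714146, plus strand). It had 197 counts (10.1 CPM) without methionine and 3356 counts (229 CPM) in complete medium, a 22.7-fold lower level (19.7 to 26.4). Rrm1, the large subunit gene on chromosome 7 (102441695 to 102469771, plus strand), had 1837 counts (93.8 CPM) without methionine and 6799 counts (463 CPM) in complete medium, which is 4.94-fold lower (4.69 to 5.20). The alternative small subunit gene Rrm2b, known as a p53 target that serves DNA repair and mitochondrial DNA outside S phase, was not lower. It had 553 counts (28.2 CPM) without methionine and 333 counts (22.7 CPM) in complete medium, a ratio of 1.24 (1.08 to 1.43), under the limit for a call.

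Promoter windows are printed for 5 of the 6 dNTP genes at least 2-fold lower. The window of the sixth, Dut, lies wholly inside the annotated gene and is not shown. They come from RefSeq on GRCm38.p6, the assembly of mm10, and run 5′ to 3′ on the gene's strand. Each spans 250 bases before to 50 bases after the RefSeq gene start, which can lie inside the annotated gene, as for Tk1. Capitals mark matches to the motifs searched: CCAAT or its reverse complement ATTGG, the pentamer known as the binding site of NF-Y, and in Dck TTCAAA, the reverse complement of the CHR element TTTGAA. The windows are Rrm2 (chr12:24708004-24708303, plus strand), Rrm1 (chr7:102441445-102441744, plus strand), Tk1 (chr11:117825965-117826264, minus strand), Dck (chr5:88764763-88765062, plus strand) and Dctpp1 (chr7:127260618-127260917, minus strand).
Rrm2: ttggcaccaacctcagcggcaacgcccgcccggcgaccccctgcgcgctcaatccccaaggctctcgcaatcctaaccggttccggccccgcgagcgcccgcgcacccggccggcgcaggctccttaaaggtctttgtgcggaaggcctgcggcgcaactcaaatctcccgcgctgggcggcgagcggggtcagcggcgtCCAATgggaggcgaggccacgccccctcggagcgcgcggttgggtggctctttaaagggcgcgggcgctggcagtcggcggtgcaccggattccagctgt
Rrm1: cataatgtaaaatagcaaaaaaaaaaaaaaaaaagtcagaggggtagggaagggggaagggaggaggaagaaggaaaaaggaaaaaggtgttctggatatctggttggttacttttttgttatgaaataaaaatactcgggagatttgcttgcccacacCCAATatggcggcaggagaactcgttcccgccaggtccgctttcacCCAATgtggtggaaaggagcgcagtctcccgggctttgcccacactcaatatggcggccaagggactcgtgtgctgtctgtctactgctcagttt
Tk1: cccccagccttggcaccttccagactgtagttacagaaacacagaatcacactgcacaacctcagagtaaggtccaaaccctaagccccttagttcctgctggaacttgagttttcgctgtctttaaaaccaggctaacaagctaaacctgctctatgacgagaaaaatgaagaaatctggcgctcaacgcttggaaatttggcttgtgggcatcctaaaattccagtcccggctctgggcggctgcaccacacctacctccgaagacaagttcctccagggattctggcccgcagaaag
Dck: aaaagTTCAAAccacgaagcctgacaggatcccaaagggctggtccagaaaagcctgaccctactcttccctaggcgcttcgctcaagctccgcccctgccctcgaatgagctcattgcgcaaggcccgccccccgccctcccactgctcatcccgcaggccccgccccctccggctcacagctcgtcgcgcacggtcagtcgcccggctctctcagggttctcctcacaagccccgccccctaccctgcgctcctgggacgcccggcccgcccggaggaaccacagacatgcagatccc
Dctpp1: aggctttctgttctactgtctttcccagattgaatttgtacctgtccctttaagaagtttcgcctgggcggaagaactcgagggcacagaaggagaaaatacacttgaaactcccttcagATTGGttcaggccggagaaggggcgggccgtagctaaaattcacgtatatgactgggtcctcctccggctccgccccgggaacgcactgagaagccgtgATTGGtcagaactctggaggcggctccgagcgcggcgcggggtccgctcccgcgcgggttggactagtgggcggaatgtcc

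In these windows CCAAT lies at bases -50 to -46 of Rrm2 and at -91 to -87 and -45 to -41 of Rrm1, counted from the gene start. ATTGG lies at -130 to -126 and -31 to -27 of Dctpp1, and TTCAAA at -245 to -240 of Dck. The windows of Tk1 and Dut hold none of the motifs searched, and that of Dck holds no CCAAT. Windows were found for 35 of the 38 genes, all but Pfas, Rrm2b and Dhodh. A gene with several windows counts as holding a motif if any of them does, on either strand, for the 38 genes and for all others alike. CCAAT was in 15 of the 35 genes, against 43.2% of the 9267 tested genes with a window. Among the 9 dNTP genes with a window, 5 held it: Rrm1, Rrm2, Dctpp1, Dtymk and Dctd, the last of which was not called lower. In Dctd it was found only in windows that lie wholly inside the annotated gene. The letters TTTCCCGC, TTTGGCGC, TTTCGCGC or TTTGCCGC, forms of the E2F site, were in Ppat and Prps2 and in none of the 9 dNTP genes, against 5.02% of tested genes. CACGTG, the E-box bound by MYC and MAX, was in Atic, Impdh2, Paics, Dtymk and Nme1, 5 of 35 genes, against 11.9%. TTTGAA was in 7 of 35 genes, against 14.2%, and TGATGCAA or TGATGAAA, forms of the C/EBP-ATF site, were in none, against 1.51%. These are matches of letters in a short window and not measured binding.

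The small subunits of the reductase moved apart. The ratio of Rrm2 to Rrm2b counts was 28.2-fold lower without methionine (23.1 to 34.7), a comparison within each library that no scaling changes. Relative to Rrm1, Rrm2 was 4.60-fold lower (3.95 to 5.39). Per kilobase of merged exons, Rrm2b made up 46.0% of the summed level of both small subunit genes without methionine and 2.92% in complete medium. With the length of the principal transcript, chosen after the data were seen, the shares were 57.4% without methionine and 4.55% in complete medium. Annotated pseudogenes nearly identical to Rrm2 or Rrm2b had 0 counts in both libraries, and an antisense gene over Rrm2b had 7 counts without methionine and 2 in complete medium.

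Among the deoxynucleoside kinases, the cytosolic genes were lower and the mitochondrial genes were not. Tk1, the cytosolic thymidine kinase gene known for its S phase expression (chromosome 11, 117815526 to 117826092, minus strand), had 311 counts (15.9 CPM) without methionine and 1350 counts (91.9 CPM) in complete medium. It was 5.79-fold lower (5.12 to 6.57), and 83 of its exon bases overlap Afmid on the other strand, a gene with 63 counts without methionine and 67 in complete medium. Dck, the deoxycytidine kinase gene on chromosome 5 (88764996 to 88783281, plus strand), which mouse lymphocyte development requires, had 521 counts (26.6 CPM) without methionine and 1496 counts (102 CPM) in complete medium, and was 3.83-fold lower (3.47 to 4.24). Tk2, the mitochondrial thymidine kinase gene, was at 26.4 CPM without methionine and 26.5 CPM in complete medium, and the interval of its ratio held 1 (0.872 to 1.14). Dguok, the mitochondrial deoxyguanosine kinase gene and not one of the 38, was at 22.1 CPM without methionine and 18.2 CPM in complete medium. Within libraries, Tk1 relative to Tk2 was 5.76-fold lower (4.80 to 6.94) and Dck relative to Dguok 4.66-fold lower (3.87 to 5.62).

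Genes of enzymes that keep unwanted nucleotides out of DNA were also lower. Dut, on chromosome 2 (125247190 to 125258608, plus strand), encodes the dUTPase that removes dUTP and supplies dUMP for thymidylate synthesis. It had 1084 counts (55.3 CPM) without methionine and 3091 counts (210 CPM) in complete medium, 3.80-fold lower (3.55 to 4.08). Dctpp1, on chromosome 7 (127256959 to 127260709, minus strand), encodes a dCTP pyrophosphatase, and at 695 counts (35.5 CPM) without methionine against 1152 counts (78.4 CPM) in complete medium it was 2.21-fold lower (2.01 to 2.43). Dtymk, the thymidylate kinase gene, was at 64.0 CPM without methionine and 99.6 CPM in complete medium, 1.56-fold lower (1.44 to 1.68), so its interval spans the limit for a call. Dctd, the dCMP deaminase gene of the other route to dUMP, was at 51.3 CPM without methionine and 50.1 CPM in complete medium, with an interval that held 1. Thus 7 of the 10 dNTP genes were called lower, 6 of them at least 2-fold, and Rrm2b, Tk2 and Dctd were not. Over all genes, 18.0% were lower at 1.5-fold and 9.29% at 2-fold.

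**Figure D2:**
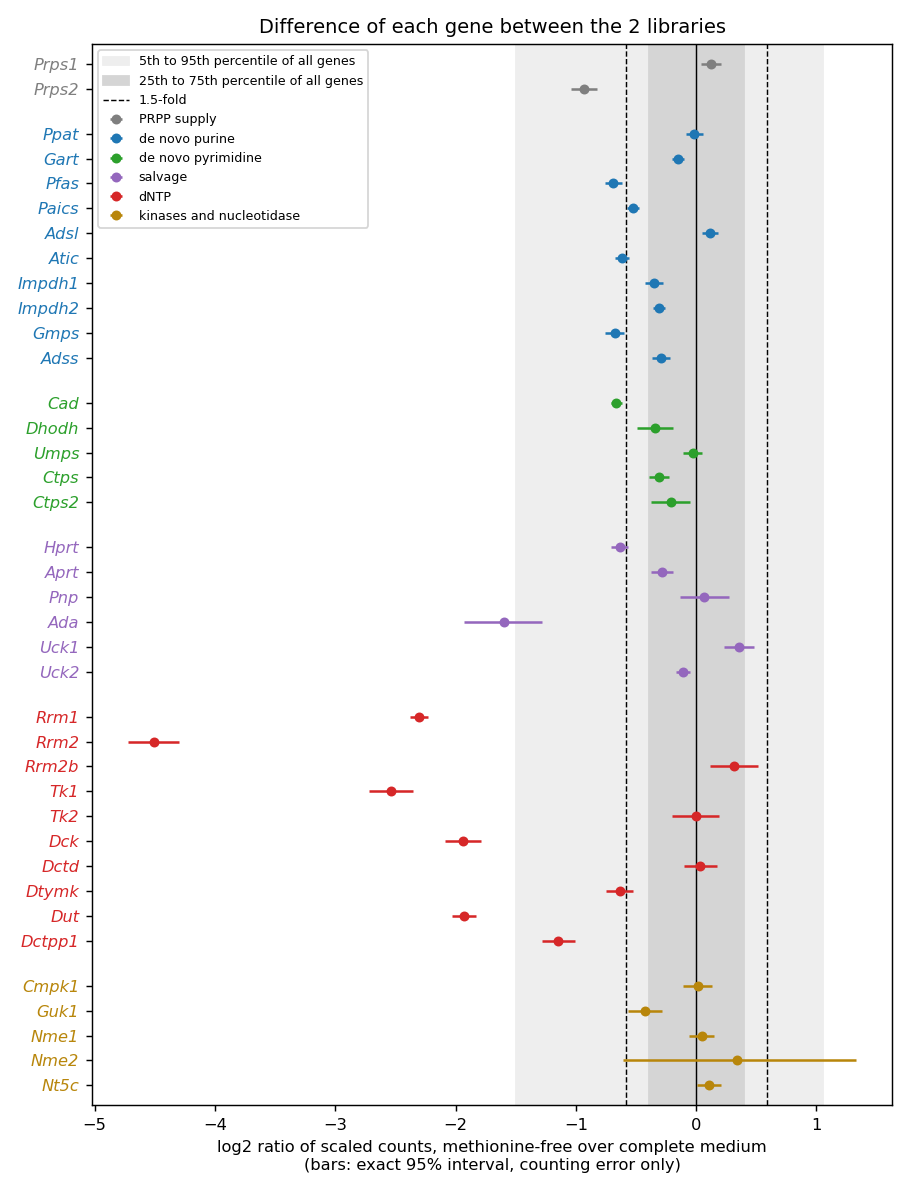
Log2 ratio of scaled counts, methionine-free over complete medium, for each gene, with the exact 95% interval for counting error, dashed lines at 1.5-fold and shaded bands for the central ranges of all 13041 genes tested. Rrm2, Rrm1, Tk1, Dck and Dut, of the dNTP group, and Ada lie below the 5th percentile of all genes (-1.50). Nme2, with the lowest counts, has the widest interval.

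Genes that mark S phase and mitosis were lower in the same library. The list of such markers was chosen with earlier results of these data known. All 20 of its genes were at least 1.5-fold lower without methionine, beside 18.0% of all genes. Of the 20, 19 were at least 2-fold lower, beside 9.29% of all genes. Marker differences ran from -5.31 to -0.74 on the log2 scale, with a median of -3.33, against -1.54 for the 10 dNTP genes. The summed level of the markers was 1844 CPM without methionine and 6290 CPM in complete medium, 3.41-fold lower (3.37 to 3.45). The summed level of the 10 dNTP genes was 407 CPM without methionine and 1373 CPM in complete medium, 3.37-fold lower (3.29 to 3.46). Ccna2, the cyclin gene of S and G2 phase, had 61 counts without methionine and 1835 counts in complete medium. The part of dividing cells in the dNTP difference was not tested.

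The genes of PRPP synthetase, which feeds every step that adds ribose phosphate, differed from each other. Prps1 was at 149 CPM without methionine and 137 CPM in complete medium, with a ratio of 1.09 (1.03 to 1.15). Prps2, on the X chromosome (167346322 to 167382749, minus strand), had 1172 counts (59.8 CPM) without methionine and 1678 counts (114 CPM) in complete medium, 1.91-fold lower (1.77 to 2.06), just short of 2-fold. Prps2 relative to Prps1 was 2.08-fold lower (1.89 to 2.29). The genes of the associated regulatory proteins, Prpsap1 and Prpsap2, which are not among the 38, had ratios of 1.45 (1.35 to 1.56) and 1.44 (1.27 to 1.62), just under the limit for a call.

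De novo purine genes lay moderately lower, and unevenly along the pathway to IMP. Ppat, the gene of the amidotransferase that commits PRPP to purines, had 3841 counts (196 CPM) without methionine and 2913 counts (198 CPM) in complete medium, and the interval of its ratio held 1 (0.942 to 1.04). Gart, which encodes a trifunctional enzyme of the early steps, was at 380 CPM without methionine and 422 CPM in complete medium, 1.11-fold lower (1.07 to 1.15), and an antisense gene overlaps its exons. Pfas, the phosphoribosylformylglycinamidine synthase gene on chromosome 11 (68985697 to 69008460, minus strand), was called lower. It had 2921 counts (149 CPM) without methionine and 3533 counts (241 CPM) in complete medium, 1.61-fold lower (1.54 to 1.70).

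Of the later steps to IMP, only Atic was called lower, and by a narrow margin. Paics, whose product carries out the carboxylase and ligase steps, was at 287 CPM without methionine and 412 CPM in complete medium, 1.44-fold lower (1.39 to 1.49), outside the limit. Adsl, the adenylosuccinate lyase gene, which acts on the route to IMP and again on that to AMP, was at 223 CPM without methionine and 207 CPM in complete medium, a ratio of 1.08 (1.03 to 1.13). Atic, whose product closes the ring with a formyl group from folate, had 4569 counts (233 CPM) without methionine and 5254 counts (358 CPM) in complete medium, 1.53-fold lower (1.47 to 1.60). It is the member nearest to the limit among those called lower, and its interval spans that limit.

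Ppat and Paics lie head to head on chromosome 5, Ppat on the minus strand (76913249 to 76951578) and Paics on the plus strand (76951307 to 76967509), and share 272 bases of exon at their 5′ ends. Their differences were not equal: the ratio of Ppat to Paics counts was 1.42-fold higher without methionine (1.34 to 1.51). The sources used here do not say whether the counting was stranded, so reads in the shared bases cannot be assigned with certainty.

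Beyond IMP, all 4 genes had ratios under 1, as did 6211 of the 13041 genes tested. Of the 4, 1 was called lower, beside 18.0% of all genes. Gmps, the GMP synthetase gene on chromosome 3 (63976106 to 64022579, plus strand), was at 117 CPM without methionine and 188 CPM in complete medium, 1.60-fold lower (1.51 to 1.69). Impdh1 and Impdh2 encode IMP dehydrogenase, the rate-limiting enzyme of guanine nucleotide synthesis and the target of the lymphocyte drug mycophenolic acid. Impdh2, the form raised in activated human lymphocytes, was at 333 CPM without methionine and 413 CPM in complete medium, 1.24-fold lower (1.20 to 1.28), and Impdh1 was 1.27-fold lower (1.21 to 1.34). A processed pseudogene 99.7% identical to Impdh2 over 1545 bases held 1984 counts without methionine and 1768 in complete medium, so the Impdh2 value is uncertain. Adss, the adenylosuccinate synthase gene on the way to AMP, was at 159 CPM without methionine and 194 CPM in complete medium, 1.22-fold lower (1.16 to 1.29).

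Ratios under 1 were therefore held by 9 of 10 purine genes, with Adsl the exception, beside 6211 of the 13041 genes tested. The purine genes held 3 calls, Pfas, Atic and Gmps. Their summed level was 2235 CPM without methionine and 2832 CPM in complete medium, 1.27-fold lower (1.25 to 1.28). The share of purine genes called, 3 of 10, stands beside 18.0% of all genes.

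Of the 5 de novo pyrimidine genes, all had ratios under 1, as did 6211 of the 13041 genes tested. Only Cad was called, 1 of 5 beside 18.0% of all genes. Cad encodes the trifunctional enzyme of the opening steps, is a known MYC target, and lies on chromosome 5 (31054780 to 31078479, plus strand). It had 7234 counts (369 CPM) without methionine and 8585 counts (585 CPM) in complete medium, 1.58-fold lower (1.53 to 1.63). Dhodh, the gene of the mitochondrial dihydroorotate dehydrogenase, was at 38.6 CPM without methionine and 49.1 CPM in complete medium, 1.27-fold lower (1.15 to 1.41). Umps, whose product makes UMP, was at 164 CPM without methionine and 167 CPM in complete medium, with an interval of its ratio that held 1 (0.929 to 1.03).

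The CTP synthetase genes lay close to each other in their differences. Ctps, the mouse counterpart of the CTPS1 needed by dividing human lymphocytes, was at 122 CPM without methionine and 152 CPM in complete medium, 1.24-fold lower (1.17 to 1.31). Ctps2 was at 33.9 CPM without methionine and 39.3 CPM in complete medium, 1.16-fold lower (1.04 to 1.30). The interval of their ratio to each other held 1 (0.824 to 1.06), as did that of Impdh2 relative to Impdh1 (0.967 to 1.09). The summed level of the pyrimidine genes was 728 CPM without methionine and 992 CPM in complete medium, 1.36-fold lower (1.33 to 1.39).

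**Figure D3:**
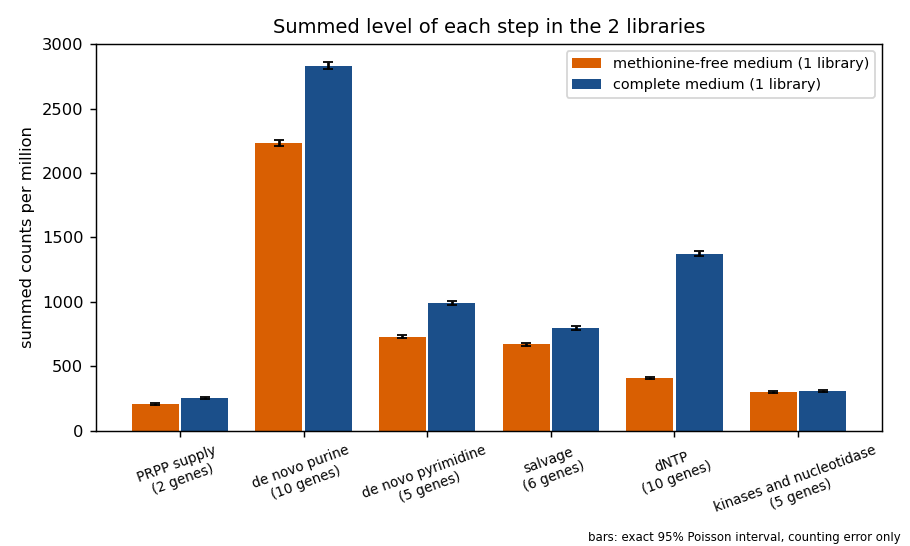
Summed CPM of the genes of each step, with exact 95% Poisson intervals for counting error, methionine-free beside complete medium. The dNTP bars differ most: their sum is 407 CPM without methionine and 1373 CPM in complete medium, while the sum of the nucleotide kinase and nucleotidase genes is 302 CPM without methionine and 305 CPM in complete medium.

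Set against each other within libraries, the sums of the steps did not keep their proportions. The ratio of dNTP to de novo purine counts was 0.182 without methionine and 0.485 in complete medium, which is 0.376 times (0.365 to 0.387). Against the pyrimidine sum the dNTP ratio was 0.404 times that of complete medium (0.390 to 0.418), and against the salvage sum 0.354 times. Pyrimidine against purine counts changed little, to 0.930 times (0.906 to 0.955), and salvage against purine counts to 1.06 times (1.03 to 1.09).

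Of the 6 salvage genes, Hprt and Ada were called lower, beside 18.0% of all genes. None was called higher, beside 15.7% of all genes. Hprt, which returns hypoxanthine and guanine to IMP and GMP (X chromosome, 52988137 to 53021659, plus strand), had 3176 counts (162 CPM) without methionine and 3700 counts (252 CPM) in complete medium, 1.55-fold lower (1.48 to 1.63). Per kilobase of merged exons it had the highest level of the 38 genes in both libraries, 126 CPM per kilobase without methionine and 195 in complete medium. Aprt, its counterpart for adenine, was at 104 CPM without methionine and 126 CPM in complete medium, 1.22-fold lower (1.14 to 1.30). Ada, the adenosine deaminase gene on chromosome 2 (163726584 to 163750239, minus strand), had 117 counts (5.97 CPM) without methionine and 266 counts (18.1 CPM) in complete medium. At 3.03-fold lower (2.43 to 3.80), it was the only gene outside the dNTP group past 2-fold.

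The other salvage genes were not called. Pnp, the purine nucleoside phosphorylase gene, was at 25.1 CPM without methionine and 23.9 CPM in complete medium. Its close neighbour Pnp2, with 18 counts without methionine and 1 in complete medium, is 97.2% identical over 1084 bases. A further overlapping gene had 0 counts in both libraries. How reads in shared sequence were counted is not given, so the Pnp value is uncertain. The uridine-cytidine kinase gene Uck1 was at 75.4 CPM without methionine and 58.9 CPM in complete medium, a ratio of 1.28 (1.18 to 1.39), and a pseudogene nearly identical to it held 25 counts without methionine and 15 in complete medium. Uck2, which encodes the other uridine-cytidine kinase, was at 297 CPM without methionine and 320 CPM in complete medium. Uck2 relative to Uck1 was 1.38-fold lower (1.26 to 1.52). Counting Tk1, Tk2 and Dck with salvage, where their reactions could also be placed, would make 4 of 9 salvage genes lower and leave 5 of 7 in the dNTP group. Both stand beside 18.0% of all genes.

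Kinases that charge nucleotides for all routes, and the nucleotidase gene, included no call, beside 18.0% of all genes lower and 15.7% higher. Cmpk1, the UMP-CMP kinase gene, was at 68.4 CPM without methionine and 67.8 CPM in complete medium. Guk1, the guanylate kinase gene, was at 41.5 CPM without methionine and 55.8 CPM in complete medium, 1.34-fold lower (1.22 to 1.48). Nme1, a nucleoside diphosphate kinase gene, was at 90.1 CPM without methionine and 87.2 CPM in complete medium. Nme2, the gene of the other abundant form, had 27 counts without methionine and 16 in complete medium. An annotated readthrough gene with 0 counts shares 573 exon bases with Nme2 and 418 with Nme1, so both values are uncertain. A processed pseudogene 97.8% identical to Nme2 over 457 bases held more counts than Nme2, 140 without methionine and 118 in complete medium. Nt5c, which encodes a cytosolic deoxyribonucleotidase, was at 100.4 CPM without methionine and 93.2 CPM in complete medium.

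**Figure D4:**
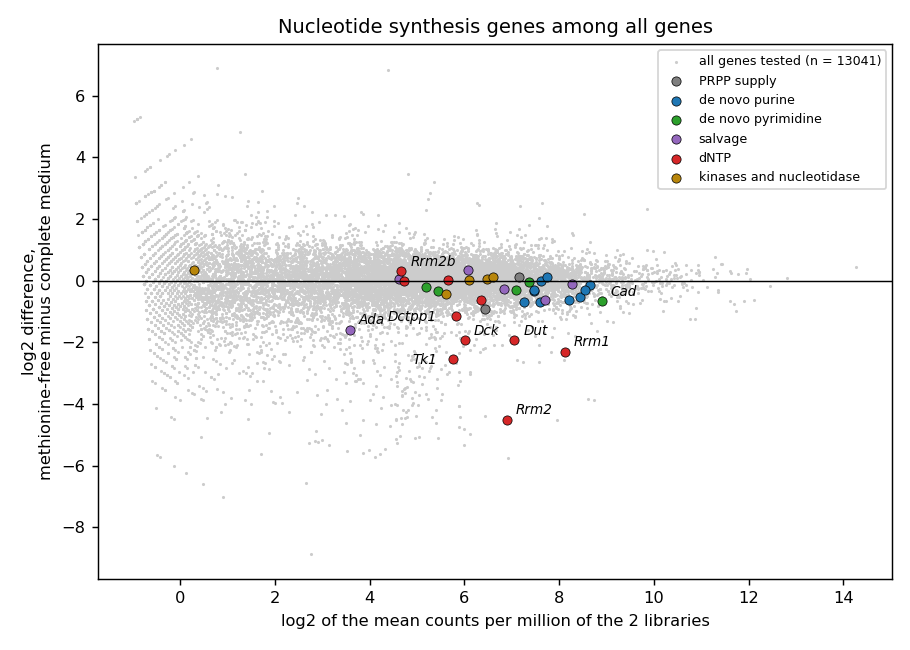
Log2 difference, methionine-free minus complete medium, against the log2 mean CPM of both libraries for all 13041 genes tested (grey) and the 38 genes (coloured by step). Rrm2, Tk1, Rrm1, Dck and Dut lie below the main cloud, whereas most purine and pyrimidine genes sit at or just under the zero line.

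**Figure D5:**
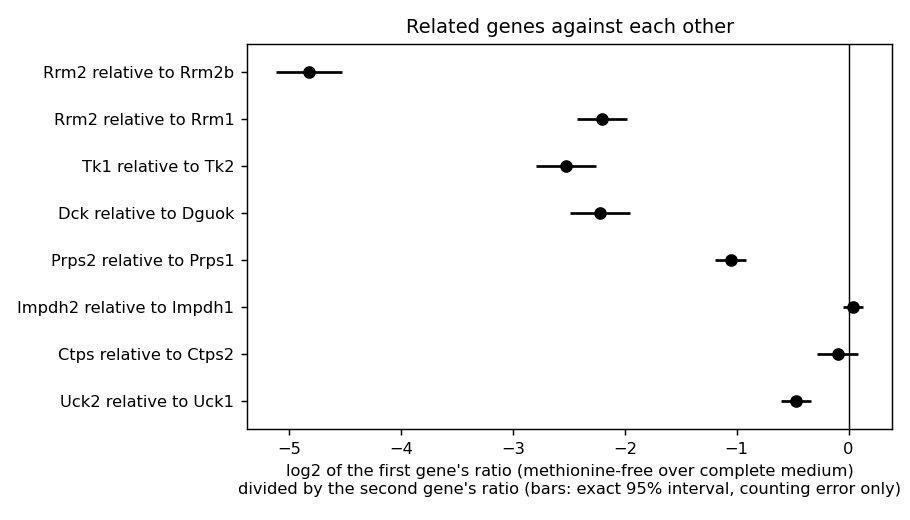
For related genes, the log2 of the first gene's ratio between media divided by the second gene's ratio, with exact 95% intervals for counting error. The pairs of Impdh and Ctps genes have intervals that hold 0, and Rrm2 relative to Rrm2b lies furthest from it.

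Beside the 38 genes, other genes of nucleotide metabolism were read from lists, and their counts stand beside the 18.0% of all genes called lower and the 15.7% called higher. Of 11 measured thymidylate and folate genes, 6 were at least 1.5-fold lower and none higher. Tyms, the thymidylate synthase gene, was at 12.8 CPM without methionine and 67.7 CPM in complete medium, 5.29-fold lower (4.60 to 6.10). Mthfd1, the cytosolic folate enzyme gene that supplies purine synthesis, was 1.94-fold lower (1.86 to 2.04), and Aldh1l2 was 1.91-fold lower (1.69 to 2.15).

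Ribose 5-phosphate, the sugar of every nucleotide, comes from the pentose phosphate pathway. Of its 7 genes, 4 were called lower and none higher. Tkt, the transketolase gene, was at 313 CPM without methionine and 626 CPM in complete medium, with an interval of 1.94-fold to 2.07-fold lower. Taldo1 was 1.68-fold lower, and G6pdx (1.53-fold) and Rpia (1.51-fold) lay just past the limit.

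Of 16 measured genes of other salvage and kinase steps, 4 were lower and 1 was higher. Adssl1, Cmpk2 and Tymp, the higher one, are named after their values were seen and had at most 39 counts in a library. Ak4, a mitochondrial adenylate kinase gene, was 1.69-fold lower (1.58 to 1.82) and Nme4 1.66-fold lower (1.39 to 1.98), while the adenosine kinase gene Adk was at 51.6 CPM without methionine and 67.7 CPM in complete medium. Among 20 measured genes of breakdown and pool cleaning, 3 were lower, a share under the 18.0% of all genes, and none higher. Samhd1, which encodes the dNTP-degrading enzyme that lowers dNTP pools in resting cells, was 1.54-fold lower (1.48 to 1.59), Nudt1, which clears oxidized nucleotides, 1.95-fold lower (1.68 to 2.27), and Xdh 1.89-fold lower (1.38 to 2.62). The 7 measured carrier genes held no lower call and 2 higher ones, Slc29a3 at a ratio of 1.54 (1.34 to 1.76) and the mitochondrial pyrimidine carrier gene Slc25a33 at 1.56 (1.31 to 1.86). Neither Slc29a1, the equilibrative nucleoside transporter gene, at 84.8 CPM without methionine and 119.8 CPM in complete medium, nor Slc25a36, at a ratio of 1.29 (1.19 to 1.39), was called.

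Genes of transcription factors known to control nucleotide synthesis genes were called in both directions. E2F factors are known to act on Rrm1, Rrm2, Tk1 and Tyms, and MYC on Cad and purine genes. A list of 18 genes held such factors, their partners and other regulators, not all of them transcription factors. Of these 18, 7 were at least 1.5-fold lower, beside 18.0% of all genes. At least 1.5-fold higher were 4, beside 15.7% of all genes. E2f1 was at 12.6 CPM without methionine and 84.4 CPM in complete medium, 6.69-fold lower (5.83 to 7.70), and E2f2 was 7.62-fold lower (6.48 to 9.01). The repressor genes E2f7 and E2f8 were 30.8-fold lower (15.9 to 68.4) and 33.8-fold lower (23.2 to 51.2). Myc was at 1308 CPM without methionine and 805 CPM in complete medium, a ratio of 1.62 (1.59 to 1.66). Also called higher were Mga at 1.73 (1.64 to 1.82), Atf4 at 1.78 (1.73 to 1.83) and Trp53 at 1.51 (1.45 to 1.58). The part of these factors in the differences of the 38 genes was not tested.

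Most of the 38 differences exceeded counting error. The interval of the ratio lay below 1 for 25 of the 38 genes, above 1 for 5, and held 1 for 8. The same count was not made over all 13041 genes tested, so it does not set the 38 genes apart from them. Intervals narrow as counts rise, so small differences can exclude 1. Prps1, with 2910 counts without methionine and 2005 in complete medium, had a ratio of 1.09 (1.03 to 1.15). Uck2, with 5810 counts without methionine and 4696 in complete medium, was 1.08-fold lower (1.04 to 1.12). Of the 14 genes called lower, 11 had the whole interval past 1.5-fold, and Atic, Hprt and Dtymk did not. Spread between cultures or animals is not in these intervals.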

How the data were processed

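The data are 1 table of raw counts per Ensembl gene, deposited by the authors as whole numbers without normalization, with 1 column per medium. Per the submitters' processing notes, reads were placed on mm10. Aligner, counter, annotation and strand use were all not given in the sources used here. Columns were matched to samples by titles and descriptions.

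Symbols, positions and lengths came from GENCODE M21 (54495 of 54532 identifiers matched). The other 37 held 0.00910% of the methionine-free counts and 0.00742% of the complete-medium counts. Counts were scaled with TMM in edgeR 4.0.16 (R 4.3.3), with factors of 0.997 and 1.003 for the methionine-free and complete-medium libraries. The log2 difference used a prior count of 0.5, and calls were made on it. Intervals were computed with scipy 1.17.1, as exact conditional binomial intervals, and for pairs of genes as conditional odds ratios. Ratios between the summed counts of steps have log-normal Poisson intervals instead. A gene needed a mean of 10 counts. A single count was worth 0.0510 CPM without methionine and 0.0681 CPM in complete medium. Reads carry no named molecular identifiers, so copies of 1 molecule cannot be told apart in the counts. The intervals take every count as separate and cover counting error only. Near-identical copies were sought with BLAST 2.17.0, at 95% identity over 200 bases.

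The members and lists were chosen with earlier results of these data known. All 38 members are named; other lists give counts and up to 4 genes each, those differing most among genes averaging 50 counts or more, with Tyms, Samhd1, Adk, Dguok and Myc named in any case. A further gene under this rule is not reported here. Adssl1, Cmpk2, Tymp, Pnp2, Csf1r, Klrb1c, Ncr1, Klra8, Afmid, Mga, Atf4 and Trp53 were named with their values known. The calculation was checked on simulated counts. Comparisons of proteins were not run, and no sequence table for proteins was used.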

Additional observations from a re-analysis of the deposited data

How the results depend on the processing

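With 1 library per medium, no replicate could be left out. No paired analysis was possible because each medium has 1 library. Under median-of-ratios factors (DESeq2 1.42.0), total counts, upper-quartile factors, a prior count of 5, no minimum count and a minimum mean of 50 counts, 14 of the 38 genes stayed at least 1.5-fold lower, 7 at least 2-fold lower and none 1.5-fold higher, and the medians of the 4 steps kept their direction. Other scalings and the prior count shifted the 38 log2 differences by -0.057 to 0.041, each within its counting interval, and Tk2, which was not called, changed sign under upper-quartile factors. Placing Tk1, Tk2 and Dck with salvage gave medians of -0.28 for salvage and -1.14 for dNTP genes. Among all genes, 6312 were lower and 4898 higher of 54532 with no minimum, and 1535 lower and 1366 higher of 10459 with a mean of 50 counts. Per kilobase of the principal transcript, chosen after the data were seen, Tk2 made up 49.9% of Tk1 and Tk2 without methionine and 14.7% in complete medium, against 70.8% without methionine and 29.5% in complete medium per kilobase of merged exons. Among the 38 genes, Nme2 had the fewest counts, and the sequence it shares with other genes also makes its value uncertain.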
